A study of Mus musculus with 9 samples.

Results

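Genes of mitochondrial and peroxisomal fatty acid oxidation were followed in mouse macrophages that met a bacterial stimulus with or without a lipid-type pretreatment. The genes were chosen by symbol: the enzymes of beta-oxidation, the carnitine shuttle and electron transfer other than Cpt1a, and the peroxisomal importers with their accessory genes. All 37 symbols were found among the 15343 genes of the table, and all 37 passed the filter on low values. In all, 3 groups of 3 RNA-seq libraries were compared, all from wild-type (WT) intraperitoneal primary macrophages of a strain written CF7B1/6. Every group received lipopolysaccharide (LPS, a bacterial cell wall component) at 100 ng/ml for 6 h. The LPS group had no pretreatment given, the DHA group had docosahexaenoic acid (DHA, an omega-3 fatty acid) at 100 µM for 1 h before LPS, and the cpdA group had cpdA, a small molecule agonist of the fatty acid receptor Gpr120 per the labels, at 10 µM for 1 h before LPS. The doses of DHA and cpdA therefore differ. No library without LPS was analysed here, so every change below is one on top of LPS. The labels do not say that the libraries of a group came from separate animals or cultures, and p-values then measure only the spread between these samples, which may be technical.

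Beta-oxidation shortens an acyl-CoA by repeated rounds of dehydrogenation, hydration, a second dehydrogenation and thiolysis. Long chains enter mitochondria as carnitine esters, and electrons from the first step pass through the electron transfer flavoprotein to the respiratory chain. Peroxisomes handle very long and branched chains with an oxidase in place of the first dehydrogenase. Fatty acids are ligands of the PPAR nuclear receptors, which are known to induce many of these genes, and inflammatory macrophages are known to lean on glycolysis, while alternatively activated macrophages burn more fatty acid.

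The libraries held between 13797079 and 37572822 reads, with DHA 1 the shallowest. On principal components of all kept genes, cpdA 3 stood apart on the first (40.5% of the variance) and LPS 3 on the second (28.8%), so results are given with all 9 libraries and without those 2. All 10 macrophage markers looked for were present, with a summed level of 323106 to 581531 in LPS, 560949 to 582893 in DHA and 385859 to 586576 in cpdA. LPS 3 and cpdA 3 had the lowest sums, which are mostly Lyz2 (210386 in LPS 3 and 269049 in cpdA 3, beside 447053 to 459826 in the others). Other macrophage markers went both ways. Emr1 (29157) and Itgam (6345) were lowest in LPS 3, and Cd14 (12490), Mertk (4301) and Timd4 (25.4) in cpdA 3. Cd68 (38110), Mertk (10615) and Icam2 (72.6) were highest in LPS 3, and Csf1r (21816) and Gata6 (406) in cpdA 3. Sums of markers of other cells differed between the groups in part. The 4 of 9 neutrophil markers found summed to 230 to 394 in LPS, 425 to 506 in DHA and 143 to 508 in cpdA. The 6 of 6 B cell markers summed to 255 to 314, 186 to 230 and 235 to 325 in the same order. The 5 of 8 mast cell, basophil and eosinophil markers summed to 296 to 317, 200.2 to 245 and 216 to 305. The 3 of 5 dendritic markers summed to 187 to 220.0, 139 to 161 and 138 to 171. The 2 of 7 T and NK cell markers summed to 31.6 to 42.6, 35.7 to 38.3 and 28.6 to 41.8. The 9 of 9 mesothelial, fibroblast and endothelial markers summed to 15583 to 27985, 16787 to 18366 and 17088 to 19201, with Col1a1, Col3a1 and Dcn as the main contributors. The 3 of 4 nuclear RNAs used as a sign of RNA quality summed to 9612 to 18199, 11153 to 19217 and 12438 to 51027, with cpdA 3 highest. No marker found was at 0 in all libraries, and the part of these shifts in the results below was not tested. In bulk RNA, fewer cells of a type and less RNA per cell cannot be told apart.

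Promoter windows were read from RefSeq (build GRCm38.p6, 250 bases before to 50 after each start) for 30 of the 37 genes, which gave 31 windows. The values themselves were aligned to mm9, another build, so these sequences show the genes and not the reads. The first set is shown because PPAR receptors bind a pair of half-sites AGGTCA in tandem with 1 base of any kind between them. With up to 2 mismatches on either strand, this tandem occurred in 3 of the 31 windows, against 3.86% of all 32851 windows of this length. Capitals mark the match, and positions count from the start of the gene.
Echs1 (chr7:140116484-140116512, minus strand, bases -83 to -71): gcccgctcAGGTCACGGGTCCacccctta
Etfa (chr9:55512300-55512328, minus strand, bases -77 to -65, motif on the opposite strand): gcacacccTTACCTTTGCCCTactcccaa
Slc25a20 (chr9:108662134-108662162, plus strand, bases 7 to 19): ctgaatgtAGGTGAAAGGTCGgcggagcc

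The second motif was GCGCA followed directly by TGCGC without mismatch, the element of NRF1, a regulator of nuclear genes for mitochondrial proteins. It occurred in 2 of the 31 windows, against 0.971% of all windows. The ERR element TCAAGGTCA without mismatch occurred in 0 of the 31 windows, against 0.423% of all windows. These are matches of letters and not sites of binding, and no match says only that these letters are not in this window.
Etfdh (chr3:79628878-79628903, minus strand, bases -128 to -119): cttctaggGCGCATGCGCacacgcga
Acad10 (chr5:121660501-121660526, minus strand, bases -8 to 2): ccccgggcGCGCATGCGCtttcgaca

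Hadha and Hadhb encode the alpha and beta subunits of the mitochondrial trifunctional protein and lie head to head with 272 bases between their starts. The stretch between them is shown because the values of the paired genes are compared below. Capitals mark the 228 bases that belong to the windows of both genes, and 58.8% of the 250 bases are G or C.
Hadha and Hadhb (chr5:30155003-30155252, plus strand): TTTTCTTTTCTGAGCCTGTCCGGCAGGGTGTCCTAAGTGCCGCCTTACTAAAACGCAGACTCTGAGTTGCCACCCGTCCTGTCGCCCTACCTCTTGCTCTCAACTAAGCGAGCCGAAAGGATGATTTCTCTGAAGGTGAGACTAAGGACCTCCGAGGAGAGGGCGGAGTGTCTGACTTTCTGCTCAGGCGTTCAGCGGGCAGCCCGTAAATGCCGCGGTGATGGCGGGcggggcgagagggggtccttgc

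With DHA, most of the oxidation genes lay modestly above their LPS level. Of the 37 genes, 31 had a positive change, and the median change was 0.24 on the log2(value + 1) scale, against -0.00070 over all 13895 genes kept. For 19 of the 37 genes (51.4%), all 3 DHA libraries lay above all 3 LPS libraries, against 13.0% of all genes. For 0 of the 37 genes did all 3 lie below, against 15.0% of all genes. The 19 genes spanned most steps: Cpt2, Slc25a20 and Crat of the carnitine shuttle, 5 acyl-CoA dehydrogenases (Acads, Acadm, Acadl, Acadvl, Acad11), Hadh, Hadhb and Acaa2, the auxiliary enzymes Ech1, Eci2 and Decr1, Etfb and Etfdh, and the peroxisomal genes Acox3, Hsd17b4 and Abcd2.

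Single genes did not pass the test over all genes with the 9 libraries. limma with Benjamini-Hochberg adjustment called 0 of the 37 genes with DHA, against 1 of 13895 genes in all (0.00720%), and the lowest adjusted p of an oxidation gene was 0.183. At an unadjusted p under 0.05, limma gave 17 higher (45.9%) and 0 lower, against 7.49% and 6.66% of all genes. On recovered reads, edgeR called 0 of the 37 (0.0144% of all genes higher), and DESeq2 called 4 of the 37 as higher (Hadh, Acads, Acaa2, Hadhb), against 1.23% higher and 1.09% lower of the 13616 genes it gave an adjusted p. Without LPS 3 and cpdA 3, limma called 8 of the 37 as higher and 0 as lower, against 2.75% and 4.04% of all genes, and the median change was 0.21. Leaving out LPS 3 alone gave 0 calls among the 37 and 2 among all 13895 genes. Leaving out cpdA 3 alone gave 4 calls among the 37 and 373 among all 13895 genes. As cpdA 3 is in neither group compared here, leaving it out alters the shared estimate of spread and not the DHA changes. Weighting libraries by quality gave 20 calls among the 37, of which 19 were higher, where 31.0% of all genes were called and 16.2% were higher. TMM scaling called 0 of the 37, against 0.0216% of all genes.

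With cpdA, most of the oxidation genes also lay above the same LPS libraries, and by less once cpdA 3 was left out. Of the 37 genes, 30 had a positive change, and the median change was 0.23, against -0.0043 over all genes. For 17 of the 37 genes (45.9%), all 3 cpdA libraries lay above all 3 LPS libraries, against 10.7% of all genes. Acaa1a alone lay below LPS in all 3, against 12.2% of all genes. Without cpdA 3 the median change was 0.16, and without cpdA 3 and LPS 3 it was 0.12. The 17 genes included Cpt2, Slc25a20 and Crat of the carnitine shuttle, and Mlycd, which was grouped with it. The others were 4 acyl-CoA dehydrogenases (Acads, Acadm, Acadvl, Acad11), Hadh, Hadhb, Acaa2, the auxiliary enzymes Ech1, Eci1 and Eci2, Etfb, Etfdh and the peroxisomal Hsd17b4. Both comparisons use the same 3 LPS libraries, so their values are set side by side below and not read as separate evidence.

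limma with Benjamini-Hochberg adjustment called 0 of the 37 genes with cpdA on the 9 libraries (0.00720% of all genes), and the lowest adjusted p of an oxidation gene was 0.198. At an unadjusted p under 0.05, limma gave 11 higher (29.7%) and 0 lower, against 6.56% and 8.05% of all genes. DESeq2 called 2 of the 37 as higher (Acads and Ech1), against 1.61% higher and 1.65% lower of the 12000 genes it gave an adjusted p, and edgeR called 0, against 0.00720% of all genes as higher. Without LPS 3 and cpdA 3, limma called 0 of the 37, against 0.712% of all genes as higher and 0.885% as lower. Library quality weights gave 5 calls, all higher (Eci2, Acadvl, Acads, Ech1 and Etfb), against 2.17% of all genes higher and 4.05% called in either direction.

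**Figure D1:**
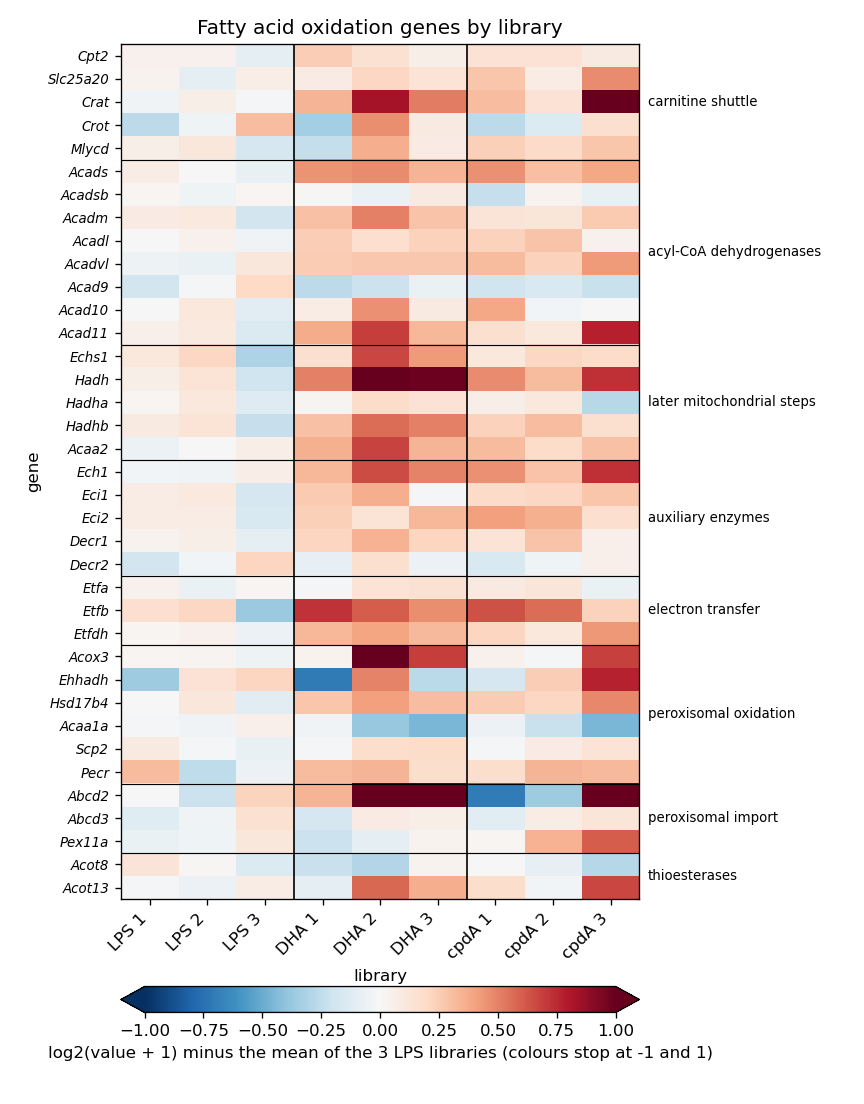
Heat map of the 37 oxidation genes (rows, grouped by role) in the 9 libraries (columns). Colour gives log2(value + 1) minus the mean of the 3 LPS libraries, red for higher and blue for lower, and colours stop at -1 and 1. The DHA and cpdA columns are mostly red for genes of the mitochondrial steps, while Acad9, Acaa1a and Acot8 have blue cells there.

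Library by library, the oxidation genes had a positive median in all 6 pretreated libraries. Measured from the average of LPS 1 and LPS 2, the oxidation genes had a median of 0.16 in DHA 1, 0.33 in DHA 2 and 0.19 in DHA 3, and 0.10, 0.11 and 0.20 in cpdA 1, 2 and 3. LPS 3 lay at -0.089 on this measure, and the medians over all genes lay between -0.015 and 0.0152 in all 9 libraries. The number of oxidation genes above all 3 LPS libraries was 21, 30 and 25 in DHA 1, 2 and 3, against 28.8%, 30.9% and 30.7% of all genes. It was 23, 25 and 24 in cpdA 1, 2 and 3, against 29.2%, 26.3% and 35.5% of all genes. The number below all 3 LPS libraries was 8, 5 and 1 in DHA 1, 2 and 3, against 31.8%, 32.6% and 28.3% of all genes. It was 4, 2 and 5 in cpdA 1, 2 and 3, against 30.4%, 26.3% and 36.7% of all genes.

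**Figure D2:**
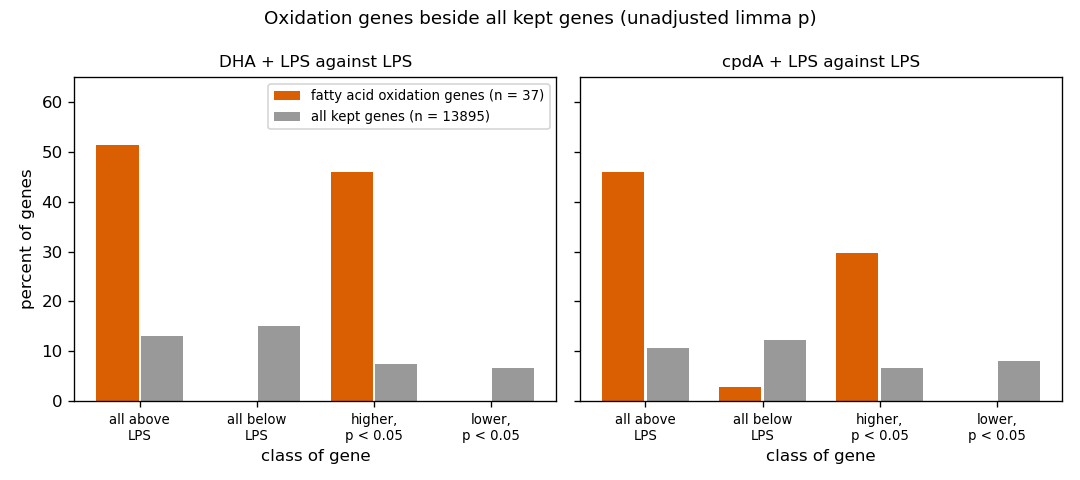
Bar chart of the percent of the 37 oxidation genes (orange) and of all 13895 kept genes (grey) in each class, for DHA (left) and cpdA (right) against LPS. Classes are all 3 libraries above or below all 3 LPS libraries, and higher or lower at an unadjusted limma p under 0.05. The orange bar reaches 51.4% with DHA and 45.9% with cpdA for the first class, where the grey bars stand at 13.0% and 10.7%.

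Of the 8 roles, the later mitochondrial steps had the highest median change with DHA, 0.45 over 5 genes, beside 0.23 with cpdA. These medians were 0.34 and 0.16 without LPS 3 and cpdA 3. Hadh, the dehydrogenase that oxidises medium and short 3-hydroxyacyl-CoA, had normalised read counts of 272, 287 and 227 in LPS 1, 2 and 3, 370.0, 530.0 and 516 in the DHA libraries, then 363, 325 and 433 in cpdA 1, 2 and 3. Every pretreated library lay above every LPS library. The change was 0.84 (SE 0.17) with DHA, with an adjusted p of 0.183 in limma on 9 libraries, 0.0148 without LPS 3 and cpdA 3, and 0.0032 in DESeq2. With cpdA it was 0.51 (SE 0.17), with an adjusted p of 0.252 in limma, and 0.30 with an adjusted p of 0.549 without those 2 libraries.

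Acaa2, the thiolase that releases acetyl-CoA in mitochondria, had normalised read counts of 405, 421 and 438 in LPS 1, 2 and 3. It had 540, 672 and 532 in DHA and 526, 478 and 516 in cpdA in the same order. The groups did not overlap, and DHA 2 was the highest library. The change was 0.46 (SE 0.11) with DHA (limma adjusted p = 0.214, and 0.0304 without LPS 3 and cpdA 3) and 0.27 (SE 0.11) with cpdA (limma adjusted p = 0.316). Echs1, the short-chain enoyl-CoA hydratase, had normalised read counts of 889, 952 and 666 in LPS, 925, 1315 and 1107 in DHA, then 890, 956 and 940 in cpdA. LPS 3 was the lowest library, and both pretreated groups overlapped LPS. Its change was 0.42 (SE 0.16) with DHA and 0.17 (SE 0.16) with cpdA, where it was 0.0037 without LPS 3 and cpdA 3.

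The subunits of the trifunctional protein, whose genes share the promoter stretch printed above, gave unlike values. Hadhb, the thiolase subunit, had normalised read counts of 1234, 1275 and 988 in LPS 1, 2 and 3, 1418, 1704 and 1642 in DHA, then 1359, 1437 and 1292 in cpdA. All pretreated libraries lay above all LPS libraries. Its change was 0.45 (SE 0.12) with DHA (limma adjusted p = 0.233, and 0.0509 without LPS 3 and cpdA 3) and 0.23 (SE 0.12) with cpdA (limma adjusted p = 0.391). Hadha, the hydratase and dehydrogenase subunit, was picked for description because it is the partner of Hadhb, after its values were seen. Its normalised read counts were 2735, 2913 and 2475 in LPS, 2746, 3065 and 2990.3 in DHA, then 2814, 2906 and 2228 in cpdA, so the groups overlapped. The change of Hadha was 0.12 (SE 0.12) with DHA and -0.04 (SE 0.12) with cpdA, and the latter turned positive under quantile normalization (0.05). The difference between the genes was not tested.

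**Figure D3:**
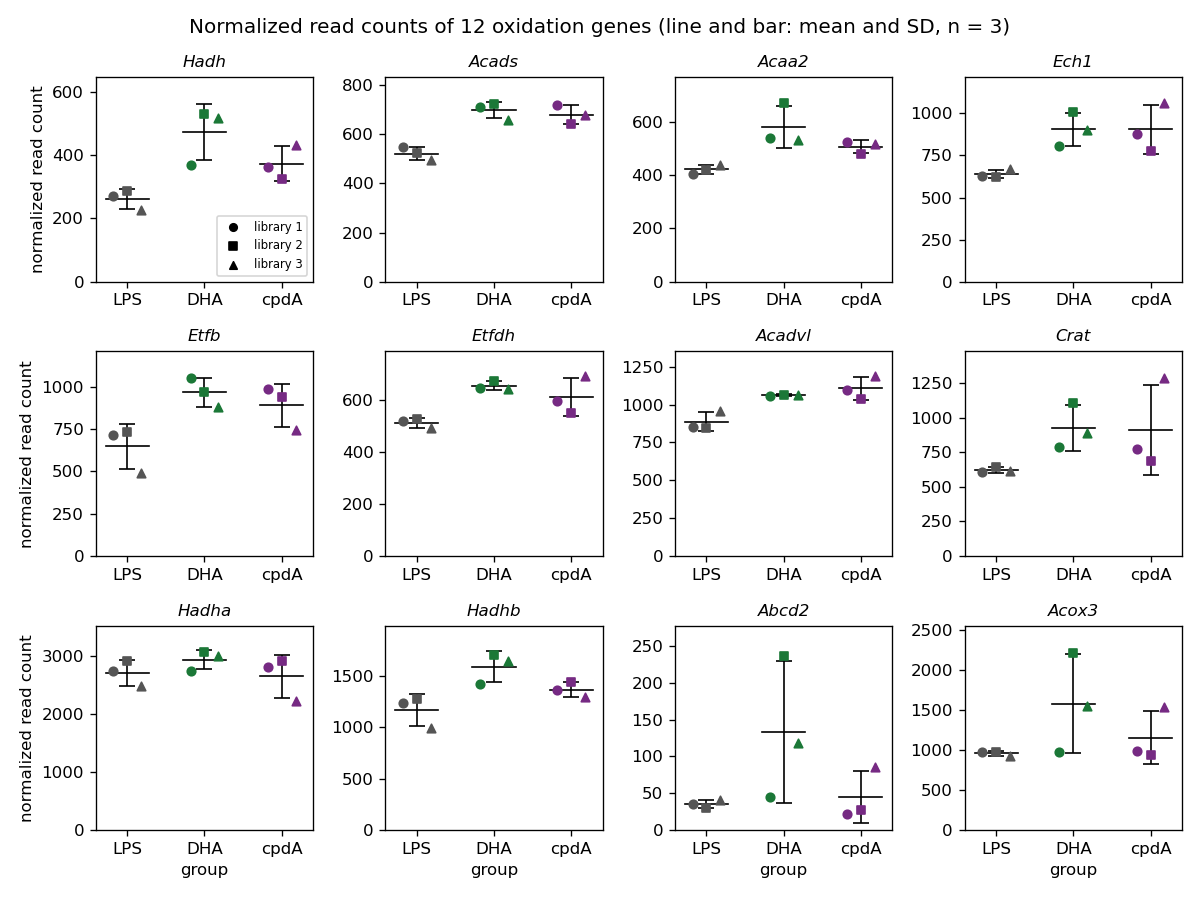
Normalised read counts of 12 oxidation genes, 1 panel a gene with the vertical axis from 0, in the LPS, DHA and cpdA groups. Each symbol is 1 library (circle 1, square 2, triangle 3), and the line and bar give the mean and SD of 3 libraries. For Hadh the DHA libraries reach 370.0 to 530.0 where LPS lies at 227 to 287. For Abcd2 and Acox3, DHA 2, DHA 3 and cpdA 3 lie well above the other libraries.

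Among the acyl-CoA dehydrogenases, which catalyse the first step for chains of different length, the median change was 0.24 with DHA and 0.18 with cpdA over 8 genes. The medians were 0.23 and 0.091 without LPS 3 and cpdA 3. Acads, for short chains, had normalised read counts of 549, 522 and 494 in LPS 1, 2 and 3, 711, 723 and 660 in DHA, then 717, 643 and 680.0 in cpdA. The 6 pretreated libraries formed a tight group above LPS. The change was 0.42 (SE 0.086) with DHA, with an adjusted p of 0.183 in limma on 9 libraries, 0.0313 without LPS 3 and cpdA 3, and 0.014 in DESeq2. With cpdA it was 0.38 (SE 0.086), with an adjusted p of 0.198 in limma and 0.0223 in DESeq2. Without LPS 3 and cpdA 3 the cpdA change was 0.34, and limma gave an adjusted p of 0.153.

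Acadvl, for very long chains, had normalised read counts of 852, 846 and 959 in LPS 1, 2 and 3, 1054, 1066 and 1065 in DHA, then 1098, 1037 and 1188 in cpdA. The DHA libraries were nearly level with one another, and both pretreated groups lay above all of LPS. Its change was 0.26 (SE 0.086) with DHA (limma adjusted p = 0.272, and 0.0295 without LPS 3 and cpdA 3) and 0.32 (SE 0.086) with cpdA (limma adjusted p = 0.224). Acadm, for medium chains, had 676, 685 and 563 in LPS, 782, 906 and 777 in DHA, then 698, 696 and 765 in cpdA. The cpdA libraries lay between the other groups, with no overlap on either side. Its change was 0.36 (SE 0.11) with DHA and 0.17 (SE 0.11) with cpdA, and the latter was 0.036 without LPS 3 and cpdA 3.

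Acad11, a dehydrogenase for long and very long chains found in peroxisomes and mitochondria, was high in single libraries. It had normalised read counts of 210, 218 and 183 in LPS 1, 2 and 3, 263, 328 and 256 in DHA, then 226, 219 and 349 in cpdA. Both pretreated groups lay above LPS, cpdA 2 by the narrowest margin. Its change was 0.46 (SE 0.19) with DHA, and with cpdA it went from 0.35 (SE 0.19) to 0.06 without LPS 3 and cpdA 3. Acadl, for long chains, ranged from 2980 to 3148 in LPS, 3436 to 3631 in DHA and 3145 to 3733 in cpdA, with overlap in cpdA 3 alone. Acadsb, which works on branched short chains, ranged from 1147 to 1197, 1127 to 1258 and 1007 to 1209, and the groups overlapped. Acad9, better known for the assembly of respiratory complex I, had a mean below LPS in both groups, with changes of -0.18 and -0.19 and overlap with LPS. Its DHA change was 0.014 with library quality weights. Acad10 lay at 81.9 to 95.6 in LPS, 93.6 to 122 in DHA and 86.9 to 116 in cpdA.

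The electron transfer genes had median changes of 0.35 with DHA and 0.25 with cpdA, and of 0.32 and 0.13 without LPS 3 and cpdA 3. Etfb, the beta subunit of the flavoprotein that takes electrons from the acyl-CoA dehydrogenases, had normalised read counts of 716, 735 and 492 in LPS 1, 2 and 3, 1052, 969 and 881 in DHA, then 989, 938 and 748 in cpdA. The third library was the lowest of each group, and cpdA 3 was only just above LPS 2. Its change was 0.60 (SE 0.17) with DHA (limma adjusted p = 0.247, and 0.0235 without LPS 3 and cpdA 3) and 0.47 (SE 0.17) with cpdA (limma adjusted p = 0.266, and 0.0846 without those libraries). Etfdh, the dehydrogenase that passes these electrons to ubiquinone, had 520, 527 and 491 in LPS, 647, 674 and 642 in DHA, then 595, 550.2 and 693 in cpdA. Both pretreated groups lay above LPS. Its change was 0.35 (SE 0.10) with DHA (limma adjusted p = 0.247, and 0.0492 without LPS 3 and cpdA 3) and 0.25 (SE 0.10) with cpdA (limma adjusted p = 0.299). Etfa, the alpha subunit, ranged from 1399 to 1514 in LPS, 1449 to 1627 in DHA and 1402 to 1597 in cpdA, so its groups overlapped where those of its partner Etfb did not.

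The auxiliary enzymes bring double bonds of unsaturated chains, DHA among them, into a form that beta-oxidation can use. Their median change was 0.24 with DHA and 0.23 with cpdA, and 0.16 with each without LPS 3 and cpdA 3. Ech1, a dienoyl-CoA isomerase, had normalised read counts of 625, 623 and 668 in LPS 1, 2 and 3, 805, 1006 and 903 in DHA, then 877, 777 and 1062 in cpdA. Every pretreated library lay above every LPS library, with a clear gap between them. The change was 0.50 (SE 0.13) with DHA, with an adjusted p of 0.233 in limma and 0.0134 without LPS 3 and cpdA 3. With cpdA it was 0.49 (SE 0.13), with an adjusted p of 0.224 in limma, 0.137 without those libraries and 0.0441 in DESeq2.

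Eci2, an enoyl-CoA isomerase, had normalised read counts of 625, 625 and 532 in LPS 1, 2 and 3, 700.0, 651 and 746 in DHA, then 789, 758 and 664 in cpdA. Neither pretreated group overlapped LPS. Its change was 0.24 (SE 0.11) with DHA and 0.31 (SE 0.11) with cpdA (limma adjusted p = 0.359 and 0.254). Eci1, the related mitochondrial isomerase, lay at 159 to 191 in LPS, 177 to 230.0 in DHA and 204 to 217 in cpdA, and its DHA change of 0.20 was -0.03 with library quality weights. Decr1, the mitochondrial dienoyl-CoA reductase, lay at 484 to 539 in LPS, 600 to 656 in DHA and 534 to 630 in cpdA. Decr2, its peroxisomal relative, had changes of 0.01 and -0.05 with sign turns under several settings, quantile normalization among them for DHA (-0.02).

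The carnitine shuttle, with Mlycd grouped in, had median changes of 0.14 with DHA and 0.24 with cpdA. These were 0.17 and 0.13 without LPS 3 and cpdA 3. Crat, the carnitine acetyltransferase that exports acetyl groups, had normalised read counts of 605, 645 and 612 in LPS 1, 2 and 3, 785, 1105 and 887 in DHA, then 770.3, 685 and 1287 in cpdA. The LPS libraries were close together, and cpdA 3 was the highest of all. Its change was 0.56 (SE 0.22) with DHA (limma adjusted p = 0.314, and 0.0271 without LPS 3 and cpdA 3). With cpdA it was 0.50 (SE 0.22) with an adjusted p of 0.339 in limma, and 0.22 without those 2 libraries. Cpt2, which returns acyl groups to CoA inside the mitochondrion, lay at 371 to 409 in LPS, 412 to 470.4 in DHA and 420.1 to 438 in cpdA. Slc25a20, the carnitine and acylcarnitine carrier, lay at 395 to 441, 448 to 488 and 445 to 587. Those small steps were free of overlap in both genes. Crot, the peroxisomal octanoyltransferase, and Mlycd, which breaks down the Cpt1 inhibitor malonyl-CoA, had changes of 0.07 each with DHA, with sign turns when single libraries were left out. With cpdA the change of Mlycd was 0.24. Its normalised read counts were 241 to 293 in LPS and 310 to 328 in cpdA, without overlap. The cpdA change of Crot was -0.08.

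**Figure D4:**
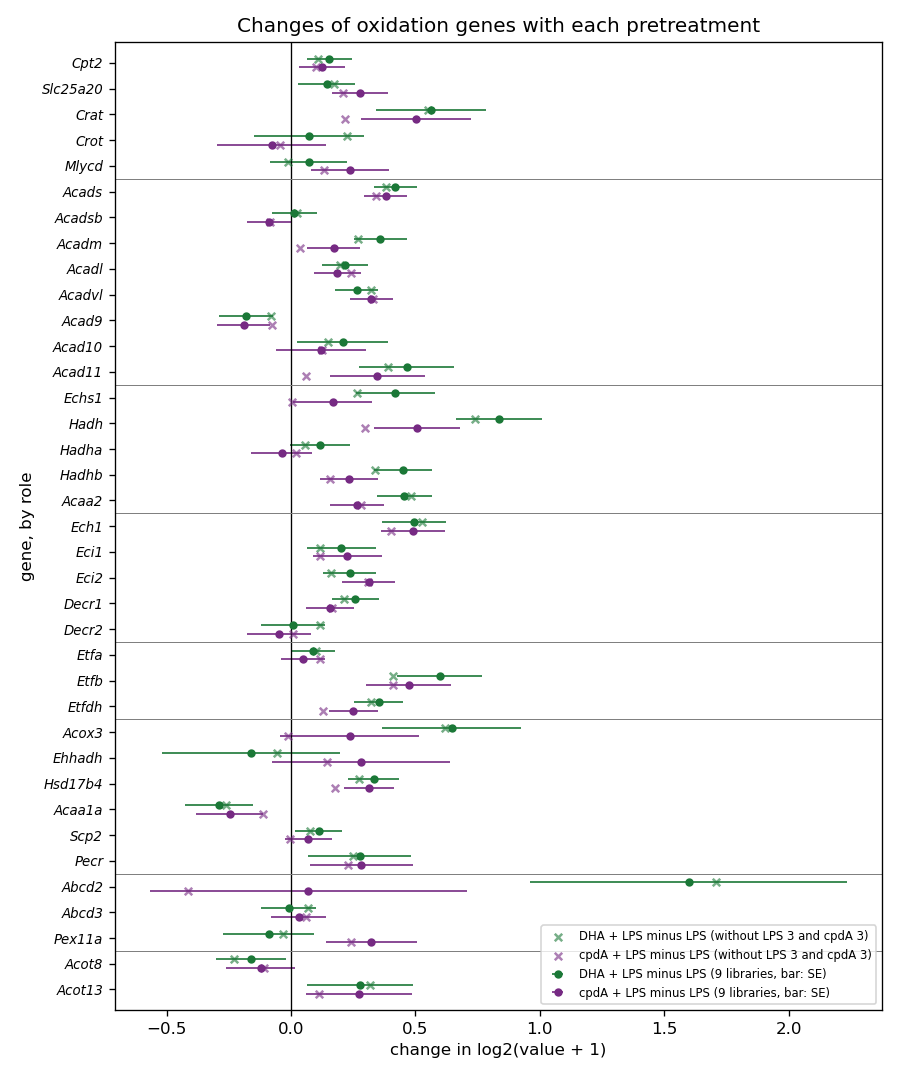
Change of each of the 37 oxidation genes against LPS on the log2(value + 1) scale (horizontal axis), by role from top to bottom, for DHA (green) and cpdA (purple). Circles and bars give the limma estimate and SE on 9 libraries, and crosses the estimate without LPS 3 and cpdA 3. Most circles lie right of 0, Hadh is at 0.84 with DHA, and for Crat and Acad11 the purple cross lies well left of the purple circle.

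Peroxisomal oxidation had medians of 0.19 with DHA and 0.26 with cpdA over 6 genes, with estimates on both sides of 0. Those medians were 0.16 and 0.072 without LPS 3 and cpdA 3. Hsd17b4, the bifunctional hydratase and dehydrogenase, had normalised read counts of 1610, 1735 and 1485 in LPS 1, 2 and 3, 1948, 2130.0 and 1994 in DHA, then 1919, 1856 and 2239 in cpdA. Neither pretreated group overlapped LPS. Its change was 0.33 (SE 0.10) with DHA (limma adjusted p = 0.261, and 0.0607 without LPS 3 and cpdA 3) and 0.31 (SE 0.10) with cpdA (limma adjusted p = 0.243). Acox3, an oxidase for branched chains, had 968, 975 and 922 in LPS, 979, 2208 and 1542 in DHA, then 986, 942 and 1532 in cpdA. DHA 1, cpdA 1 and cpdA 2 sat at the LPS level, while DHA 2, DHA 3 and cpdA 3 were well above it. Its change was 0.65 (SE 0.28) with DHA, and 0.36 without DHA 2. With cpdA it was 0.24 (SE 0.28), and -0.01 without LPS 3 and cpdA 3.

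Acaa1a, the peroxisomal thiolase, was the gene that lay below LPS, and its values are given for that reason, chosen after they were seen. It had normalised read counts of 2634, 2603 and 2771 in LPS 1, 2 and 3, 2608, 2050.0 and 1945 in DHA, then 2556, 2289 and 1942 in cpdA. DHA 1 lay inside the LPS range, and the cpdA libraries lay below it. The change was -0.29 (SE 0.14) with DHA and -0.25 (SE 0.14) with cpdA (limma adjusted p = 0.371 and 0.427). Acaa1b is a near-identical copy of this gene, so how reads were split between them is uncertain. The changes of Acaa1b were -0.23 with DHA and -0.21 with cpdA, with overlap with LPS in both groups. Scp2, a carrier and thiolase for branched chains, had changes of 0.11 and 0.07 with overlap. Ehhadh, the other bifunctional enzyme, and Pecr, a trans-enoyl-CoA reductase, were low, at 24.5 to 69.7 and 31.1 to 47.6 over the 9 libraries, and neither group left the LPS range in all of its libraries.

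Of the peroxisomal importers, Abcd2, a transporter of very long chain acyl-CoA, had the largest change of the 37 with DHA and the widest spread. Its normalised read counts were 34.8, 30.0 and 40.9 in LPS 1, 2 and 3, 44.6, 237 and 118 in DHA, then 21.2, 27.1 and 85.1 in cpdA. DHA 1, the shallowest library, was barely above LPS 3, and the cpdA libraries lay on both sides of LPS. The change was 1.60 (SE 0.64) with DHA (limma adjusted p = 0.319), and 1.03 without DHA 2. With cpdA it was 0.07 (SE 0.64), and -0.53 without cpdA 3. Pex11a, a factor of peroxisome division, had 83.7, 85.3 and 95.2 in LPS, 75.8, 82.3 and 90.1 in DHA, then 88.9, 112 and 134 in cpdA. Its groups overlapped, with changes of -0.09 (SE 0.18) and 0.32 (SE 0.18). Abcd3, an importer of branched chains and bile acid precursors, had changes of -0.01 and 0.03 with sign turns when single libraries were left out. The thioesterases, which release free fatty acid from CoA, lay at 186 to 250.0 (Acot8, peroxisomal) and 190 to 323 (Acot13, mitochondrial) over the 9 libraries. Their changes were -0.16 and 0.28 with DHA and -0.12 and 0.27 with cpdA, all with overlap.

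The direct comparison of cpdA with DHA, at unequal doses, found few differences among the oxidation genes. limma, edgeR and DESeq2 each called 0 of the 37 genes, and 0 of all genes (0%). At an unadjusted p under 0.05, limma gave 67 genes higher and 75 lower with cpdA among all genes (0.482% and 0.540%), of which Pex11a was higher and Abcd2 lower among the 37. The median over the 37 was -0.041, against -0.0151 over all genes. The estimate was lower with cpdA for 26 of the 37, against 7581 of all 13895 genes. It was higher for 11 of the 37, for 15 under quantile normalization and for 16 without DHA 2. For Acadm and Acaa2, all 3 cpdA libraries lay below all 3 DHA libraries (5.41% of the 37, against 2.61% of all genes), and for 0 of the 37 did all lie above (3.04% of all genes).

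The intervals show what these 3 libraries a group could resolve. The cpdA minus DHA difference of Hadh was -0.33 with a 95% interval of -0.72 to 0.059, and that of Hadhb was -0.22 (-0.48 to 0.05). It was -0.19 (-0.43 to 0.054) for Acadm, -0.19 (-0.44 to 0.056) for Acaa2 and -0.25 (-0.61 to 0.11) for Echs1. Abcd2 differed by -1.53 (-2.97 to -0.088), Acox3 by -0.41 (-1.04 to 0.22) and Pex11a by 0.41 (0.0014 to 0.82), all with a limma adjusted p of 0.9999. Acads, with near-equal values after both pretreatments, differed by -0.04 with an interval of -0.23 to 0.16, and Ech1 by -0.0042 with an interval of -0.29 to 0.28. An interval that spans 0 does not show that the pretreatments act alike.

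Outside the 37, genes of entry into oxidation and its control were looked at as background to the pathway. Of 33 entry and control genes listed, 29 were found and 25 kept, and limma on 9 libraries called 1 of them with each pretreatment. That gene was Cpt1a, the carnitine palmitoyltransferase at the outer membrane that limits the rate of entry. Its normalised read counts were 1533, 1504 and 1848 in LPS 1, 2 and 3, 3712, 3179 and 3418 in DHA, then 3706, 3664 and 3570.2 in cpdA. It rose by 1.08 with DHA (limma adjusted p = 0.0358) and by 1.17 with cpdA (limma adjusted p = 0.0183). It was the 1 gene of all 13895 called in each comparison, and with the replicate number as a block neither call held (0 genes called). With 1 library left out, 0 genes were called with DHA unless that library was LPS 3 or cpdA 3. With cpdA, 0 genes were called when LPS 1, LPS 2, DHA 1, DHA 3, cpdA 1 or cpdA 2 was left out. Plin2 and Hilpda, which coat and regulate lipid droplets, the lipase inhibitor Angptl4 and the mitochondrial thioesterase Acot2 lay above LPS in all 3 libraries of both groups. Their changes were 1.02, 0.90, 0.59 and 0.88 with DHA, and 1.18, 0.89, 0.94 and 0.90 with cpdA. Genes above LPS without overlap made up 44% of the 25 kept with DHA and 32% with cpdA, against 13.0% and 10.7% of all genes. Below LPS it was 4% and 0%, against 15.0% and 12.2%. Without LPS 3 and cpdA 3, limma called 5 entry genes as higher with DHA (Cpt1a, Plin2, Hilpda, Angptl4, Acot2) and 4 with cpdA (the same without Acot2), against 2.75% and 0.712% of all genes.

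Of the 23 genes of peroxisome biogenesis and accessory oxidation, all kept, limma on 9 libraries called 0 with either pretreatment. In each comparison, 21.7% of them lay above LPS without overlap and 8.7% below. Over all genes it was 13.0% and 15.0% with DHA, and 10.7% and 12.2% with cpdA. Catalase (Cat), which clears the peroxide made by peroxisomal oxidases, had normalised read counts of 2075, 2207 and 1535 in LPS 1, 2 and 3, 3170, 3771 and 3359 in DHA, then 3202, 2986 and 6101 in cpdA. All pretreated libraries lay above LPS, and cpdA 3 was far above the rest. Its change was 0.84 with DHA and 1.02 with cpdA, and it was called without LPS 3 and cpdA 3 in limma (0.68, adjusted p = 0.00182, and 0.53, adjusted p = 0.0212). Pex11c, a further division factor, and Amacr, a racemase for branched chains, also lay above LPS in both groups, with changes of 0.68 and 0.53 with DHA and 0.78 and 0.66 with cpdA. Phyh, the hydroxylase of phytanoyl-CoA, lay below LPS in both, with changes of -0.56 and -0.86. LPS 3 was its highest library (1685), and the changes were -0.40 and -0.54 without LPS 3 and cpdA 3. With cpdA, DESeq2 called Cat as higher and Phyh as lower (adjusted p = 0.0098 and 0.00466), against 1.61% and 1.65% of all genes it gave an adjusted p. With DHA it called 0 of the 23, against 1.23% higher and 1.09% lower. Of 19 genes of branched chain, odd chain and ketone body oxidation, limma called 0. Pccb and Bckdha alone lay above LPS without overlap in both groups. Their changes were 0.61 and 0.42 with DHA and 0.46 and 0.36 with cpdA. Pccb was low in LPS 3, at 249 beside 467 in LPS 1 and 480.5 in LPS 2. Without LPS 3 and cpdA 3 its changes were 0.30 and 0.097, and those of Bckdha 0.34 and 0.24. In each comparison alone, genes above LPS without overlap made up 15.8% (DHA) and 21.1% (cpdA) of these 19 genes. Over all genes it was 13.0% and 10.7%.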

How the data were processed

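RNA-seq of 9 libraries was analysed from the deposited table of normalised read counts, a signal in which the authors divided the reads of each library by 1 size factor, as the values show. Per the submitters' processing notes, CASAVA 1.8.2, Bowtie2, DESeq and the build mm9 were used. Not given in the sources used here are the counting program, annotation, kit and strandedness, so overlapping and antisense genes cannot be told apart. The labels' growth and extraction protocols describe other experiments (neural stem cells, histone-bound DNA) and were set aside. Groups were taken from the titles.

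Genes with a value of at least 10 in at least 3 of 9 libraries were kept, 13895 of 15343. limma 3.58.1 (R 4.3.3, statmod 1.5.0; trend and robust options) was run on log2(value + 1), which understates changes of low genes, with all 9 libraries in 1 fit and Benjamini-Hochberg adjustment over the genes kept at 0.05. Between 99.915% and 100.0% of values were whole multiples of what 1 read is worth (tolerance 0.05). The recovered reads were tested by the quasi-likelihood method of edgeR 4.0.16 and by DESeq2 1.42.0, which gave no adjusted p for 279 genes with DHA and 1895 with cpdA. The steps were tested on simulated data. In limma on 9 libraries, a fall or rise is a change in a gene's reads relative to the size factor of each library. It is not a change in an absolute amount.

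The members, lists, filter, tests and the leaving out of LPS 3 and cpdA 3 were chosen with earlier results of these data known. Values in all libraries are given for oxidation genes among the 8 of smallest p in a comparison, or free of overlap with a change of at least 0.4. Genes of 3 further pathway lists are named where called or free of overlap in both comparisons with LPS, except 1 that is not reported here. Alternatives were other pseudocounts (0.5 and 8), filters, scalings, moderation, weights, tools, a replicate block and leaving out each library. Nothing in the labels says what the replicate numbers stand for. Deviations of same-number libraries from their group means correlated across genes at 0.387, 0.234 and 0.437 for LPS and cpdA. They correlated at 0.14, -0.065 and 0.02 for LPS and DHA, and at 0.407, -0.345 and 0.013 for DHA and cpdA. Only LPS and cpdA met a rule for pairing of over 0.1 in every pair. Of unequal numbers, LPS 2 and cpdA 1 reached 0.292 and LPS 1 and cpdA 2 reached 0.264. Both lay above the 0.234 of LPS 2 and cpdA 2, and below 0.387 and 0.437. The other unequal numbers of LPS and cpdA lay between -0.432 and -0.306. The highest value between any groups was 0.452, for DHA 2 and cpdA 3. Whether libraries are paired by number is thus not settled. Printed errors and p-values come from the fit without the block, so those of cpdA against LPS leave out a possible pairing.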

Additional observations from a re-analysis of the deposited data

How the results depend on the processing

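Over 22 settings, the numbers of genes called varied with the tool, the weights and the libraries left out, among others. The median change of the oxidation genes with DHA stayed between 0.21 and 0.27 when single libraries were left out. With cpdA it stayed between 0.16 and 0.25, the lowest without cpdA 3, and was 0.15 with library quality weights and 0.12 without LPS 3 and cpdA 3. Oxidation genes called with DHA numbered 20 with weights, 4 in DESeq2, 8 without those 2 libraries and 0 to 4 with 1 library left out (4 without cpdA 3). With cpdA they numbered 5 with weights and 2 in DESeq2. The cause of these shifts was not tested.

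Genes called with DHA, 1 of all genes at first, numbered 3 at a filter of 50, 3 with TMM scaling, 0 without trend and robust options, 9 in a fit of only the libraries compared, 4303 with weights, 3 in edgeR, 315 in DESeq2, 943 without LPS 3 and cpdA 3, and 0 to 373 with 1 library left out (373 without cpdA 3). With cpdA they numbered 0 without trend and robust options, 0 with only the libraries compared, 563 with weights, 391 in DESeq2, 222 without those 2 libraries and 0 to 3 with 1 library left out.

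With the replicate number as a block (replicate block), 0 genes were called with DHA and 0 with cpdA, and the median changes of the oxidation genes stayed at 0.24 and 0.23. The block changed no other call.

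Signs turned for 19 of 812 values with DHA (9 genes) and 21 of 812 with cpdA (8 genes), and 0 of the turned values were called. With DHA and weights, Acad9 was at 0.014, Eci1 at -0.033, Abcd3 at 0.12 and Pex11a at 0.059. With quantile normalization Decr2 was at -0.025. Without LPS 3 and cpdA 3, Mlycd was at -0.014 and Abcd3 at 0.068. With 1 library left out, the DHA change ranged from -0.12 to 0.28 for Crot, -0.076 to 0.22 for Mlycd, -0.026 to 0.054 for Acadsb, -0.086 to 0.11 for Decr2, -0.49 to 0.11 for Ehhadh and -0.071 to 0.069 for Abcd3. With cpdA and quantile normalization Hadha was at 0.049. With weights, Hadha was at 0.018, Decr2 at 0.0072, Scp2 at -0.013 and Abcd2 at -0.41. Without LPS 3 and cpdA 3, Hadha was at 0.019, Decr2 at 0.0097, Acox3 at -0.012, Scp2 at -0.0022 and Abcd2 at -0.42. With 1 library left out, the cpdA change ranged from -0.21 to 0.075 for Crot, -0.0145 to 0.19 for Acad10, -0.11 to 0.082 for Hadha, -0.14 to 0.058 for Decr2, -0.53 to 0.45 for Abcd2 and -0.031 to 0.11 for Abcd3.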
